A study of Mus musculus with 24 samples.

Results

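YAP (gene Yap1) and its relative TAZ (gene Wwtr1), the 4 TEAD transcription factors they bind and 4 genes widely read as their targets (Ctgf, Cyr61, Ankrd1 and Amotl2) were followed across all cell fractions and cultures of a mouse liver study. The 10 genes were taken by symbol, with earlier results of these data known and with no threshold on measured values, from a table of 49568 genes, and all 10 were found in both tables and passed the filter on low values in both. Ctgf and Cyr61 are called Ccn2 and Ccn1 in newer annotations. On GRCm38 (GENCODE annotation) the genes span Yap1 at chr9:7931999-8004596, Wwtr1 at chr3:57455649-57575910, Tead1 at chr7:112679318-112906807, Tead2 at chr7:45215753-45233644, Tead3 at chr17:28331671-28350817, Tead4 at chr6:128224288-128300823, Ctgf at chr10:24595442-24598683, Cyr61 at chr3:145646976-145649981, Ankrd1 at chr19:36111961-36120099 and Amotl2 at chr9:102716672-102733418.

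The study asked how ductal epithelium and the periportal mesenchyme around it act on each other, and 24 samples were analysed by RNA sequencing. Resting liver gave 12 samples, 4 sorted fractions from each of 3 littermates (males A and E, female F) aged 12 weeks, on a C57BL/6 background and all heterozygous for B6.129S4-Pdgfratm11(EGFP)Sor/J, an allele in which the Pdgfra locus drives a nuclear green fluorescent protein. Ductal cells (DCs) were sorted as EpCAM+, and 3 stromal fractions by the reporter and SCA1 (PDGFRa+SCA1-, PDGFRa+SCA1+ and PDGFRa-SCA1+), all of them CD11b-, CD45- and CD31-. The reporter reads Pdgfra, so the PDGFRa- gate holds any SCA1+ cell without it. The transwell experiment gave 12 samples of wild type C57BL/6 mice aged 8 to 12 weeks, in 6 groups of 2. DCs were taken at day 0 or after 15 days as organoids, either alone in growth-factor-rich expansion medium (EM) or above SCA1+ mesenchymal cells (SCA1+Msc) on an insert that cells cannot cross, in mesenchymal medium (MM). SCA1+Msc were taken at day 0, or at day 15 after culture alone or beneath DCs. They were sorted as SCA1+, CD45-, CD11b- and CD31- without the reporter and expanded for 7 days in MM before DCs were added. Their change from day 0, when cells were freshly sorted, therefore takes in these 7 days as well, unlike that of organoids. SCA1+Msc grew on the bottom of the plate and DCs in a drop of Matrigel, a matrix gel, on the insert. The cultured SCA1+Msc came from 2 littermates and the cultured DCs from 2 others. EM organoids and co-cultured organoids thus differed in medium as well as in the presence of SCA1+Msc, and the parts of these cannot be told apart. Sorting followed enzymatic digestion of the liver.

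Libraries held 19.7 to 25.7 M reads in genes in the resting liver and 19.4 to 28.3 M reads in the transwell experiment. Levels are given in TPM for the transwell experiment, a unit scaled by transcript length and to the same total in every sample. For the resting liver they are given in the deposited unit, which differs from TPM by a factor of 0.722 to 1.35 for these genes because of how the column totals were applied. A difference is called when its adjusted p is below 0.05 in limma on log2(level + 1). The DC libraries carried all 6 ductal markers and the PDGFRa+ fractions all 6 mesenchymal markers. The PDGFRa-SCA1+ libraries did not match the label of mesenchymal cells: their summed mesenchymal markers were 282 to 466, against 28547 to 51010 in the PDGFRa+ fractions, while 6 of 6 endothelial markers were present with a sum of 2565 to 2877, against 4.93 to 24.7. They are named by their gate alone. SCA1+Msc at day 0 carried hepatocyte, erythroid and ductal transcripts as well. Their ductal markers summed to 1192 and 2539 in the 2 samples, against 51721 to 53706 in DCs at day 0. Hepatocyte markers summed to 15980 to 20624 and erythroid markers to 6388 to 8038, but to at most 372 and 1.81 after culture. DCs at day 0 held 4158 to 5251 and 3890 to 3961 of these. In resting liver, hepatocyte markers summed to 5775 to 6896 in DCs and to 2013 to 6426 in PDGFRa-SCA1+. Erythroid markers summed to 2662 to 6258 in PDGFRa-SCA1+, 889 to 3953 in PDGFRa+SCA1-, 533 to 2049 in PDGFRa+SCA1+ and 389 to 1346 in DCs. Leukocyte markers summed to 49.6 to 251 in PDGFRa-SCA1+ and to at most 15.5 in the other fractions. The part of this RNA in the member levels was not tested. These are bulk samples, in which fewer cells of a type and less RNA per cell cannot be told apart.

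YAP and TAZ are transcriptional co-activators held out of the nucleus by the Hippo kinases MST and LATS, and they have no DNA-binding domain of their own. In the nucleus they bind TEAD factors, which recognise a short motif and switch on genes for matrix-bound signalling proteins, cytoskeletal regulators and the pathway's own inhibitors. In the liver the pathway is known for control of organ size, for biliary identity and for its activation in bile duct cells after injury, and it responds to stiffness and cell contact. Much of this control acts on the proteins, so RNA levels read the supply of the factors and the output of their targets, not the activity of YAP or TAZ.

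The promoter letters are shown first because Cyr61, Ankrd1 and Amotl2 each held a TEAD motif there, while their levels differed in opposite directions in the results that follow. RefSeq promoter entries on GRCm38.p6 matched 7 of the 10 members (not Ctgf, Tead1 and Tead4), in 10 entries, and the 250 bases before each start were searched on both strands for the TEAD motif GGAATG, which reads on the opposite strand of the same site as CATTCC. At least 1 motif was found for 6 of these 7 members, all but Tead2. Counted by entry, 8 of the 10 entries held it, with the Wwtr1 entries sharing 1 site. Of all 32851 promoter entries, 12.6% held it in a window of the same length. The 250 bases before the start of Cyr61, the member with the highest level, are chr3:145649986-145650235 on the minus strand, outside every annotated exon of the gene, with the motif in capitals.

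Cyr61: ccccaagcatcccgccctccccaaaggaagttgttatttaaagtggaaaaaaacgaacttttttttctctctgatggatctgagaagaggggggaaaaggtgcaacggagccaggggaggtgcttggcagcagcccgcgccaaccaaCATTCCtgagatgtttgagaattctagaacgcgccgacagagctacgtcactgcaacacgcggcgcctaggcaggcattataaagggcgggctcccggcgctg

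The other sites are given as 30 bases around the motif, each 5′ to 3′ on its gene's strand, to let the neighbouring bases be compared. They are Ankrd1 (chr19:36120037-36120066 and chr19:36119950-36119979, minus strand), Amotl2 (chr9:102717727-102717756, plus strand), Yap1 (chr9:8004720-8004749, minus strand) and Wwtr1 (chr3:57576029-57576058, minus strand).

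Ankrd1, far site: gtcactgccaaaGGAATGaccctctcacat
Ankrd1, near site: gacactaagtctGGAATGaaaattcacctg
Amotl2: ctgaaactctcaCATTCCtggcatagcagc
Yap1: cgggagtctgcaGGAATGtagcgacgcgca
Wwtr1: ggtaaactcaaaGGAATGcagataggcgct

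Counted back from the start of the RefSeq entry, the first motif base lay at position -103 for Cyr61, -210 and -123 for Ankrd1, -65 for Amotl2, -141 for Yap1 and -136 for Wwtr1. The sites of Ankrd1 and Amotl2 lie inside the gene spans given above, downstream of the outermost annotated start. Those of Cyr61, Yap1 and Wwtr1 lie upstream of their spans. Of the 3 target genes with an entry, only Ankrd1 held more than 1 motif in this window, and Tead3 held motifs in 2 of its entries. The AP-1 motif TGANTCA and the CArG box, which bind factors of the immediate early response, were searched in the same way and had no match in these 7 genes. They were held by 6.75% and 1.47% of all entries. These letters describe the window only.

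Among the sorted fractions of resting liver, the co-activator TAZ was called in 1 pair of fractions and YAP in none. Wwtr1 was at 85.9, 83.1 and 116 in DCs of mice A, E and F. It was at 100.03, 131 and 154 in PDGFRa+SCA1-, and at 111, 94.6 and 132 in PDGFRa+SCA1+. In PDGFRa-SCA1+ it was at 142, 173 and 231, which put this fraction above DCs in every mouse, with no overlap. The log2 fold change was 0.92 with an SE of 0.27 (n = 3), which was called at an adjusted p of 0.0263 in limma. The call was lost without DC A (adjusted p = 0.0947), DC E (0.105), PDGFRa-SCA1+ E (0.0562) or PDGFRa-SCA1+ F (0.0906), and in limma without the trend (0.0803). Wwtr1 was called in no other pair of fractions, although PDGFRa-SCA1+ also lay above PDGFRa+SCA1+ without overlap (0.67, adjusted p = 0.108 in limma). With the totals undone PDGFRa+SCA1- was called above DCs as well (0.67, adjusted p = 0.0348).

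Yap1, which encodes YAP, was called in no pair of fractions. In DCs it was close to constant at 23.3, 25.2 and 24.1, and in PDGFRa+SCA1+ it was at 54.7, 48.0 and 51.8, so that these 2 groups did not overlap. Their log2 fold change of 1.06 (SE 0.51) had an adjusted p of 0.163 in limma with all 4 fractions sharing 1 estimate of the spread. With the totals undone it was 1.26 (adjusted p = 0.0401, or 0.0626 with the mouse as a replicate block too), with quantile normalization 1.45 (0.0398), and with only these 2 groups in the fit the adjusted p was 0.00369. The other stromal fractions were far less even, at 16.7, 62.2 and 21.5 in PDGFRa+SCA1- and at 32.0, 19.6 and 70.1 in PDGFRa-SCA1+.

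More RNA was found for TAZ than for YAP per unit of transcript length in all 24 samples. The level of Wwtr1 over that of Yap1 was 3.93 ± 0.792 (SD, n = 3) in DCs, 5.09 ± 2.66 in PDGFRa+SCA1-, 2.18 ± 0.316 in PDGFRa+SCA1+ and 5.51 ± 2.90 in PDGFRa-SCA1+. With the totals undone these ratios were 4.71, 6.05, 2.59 and 6.45. The ratio was lowest in PDGFRa+SCA1+, where it spanned 1.97 to 2.55, but PDGFRa+SCA1- of mouse E, at 2.10, lay inside that range.

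**Figure D1:**
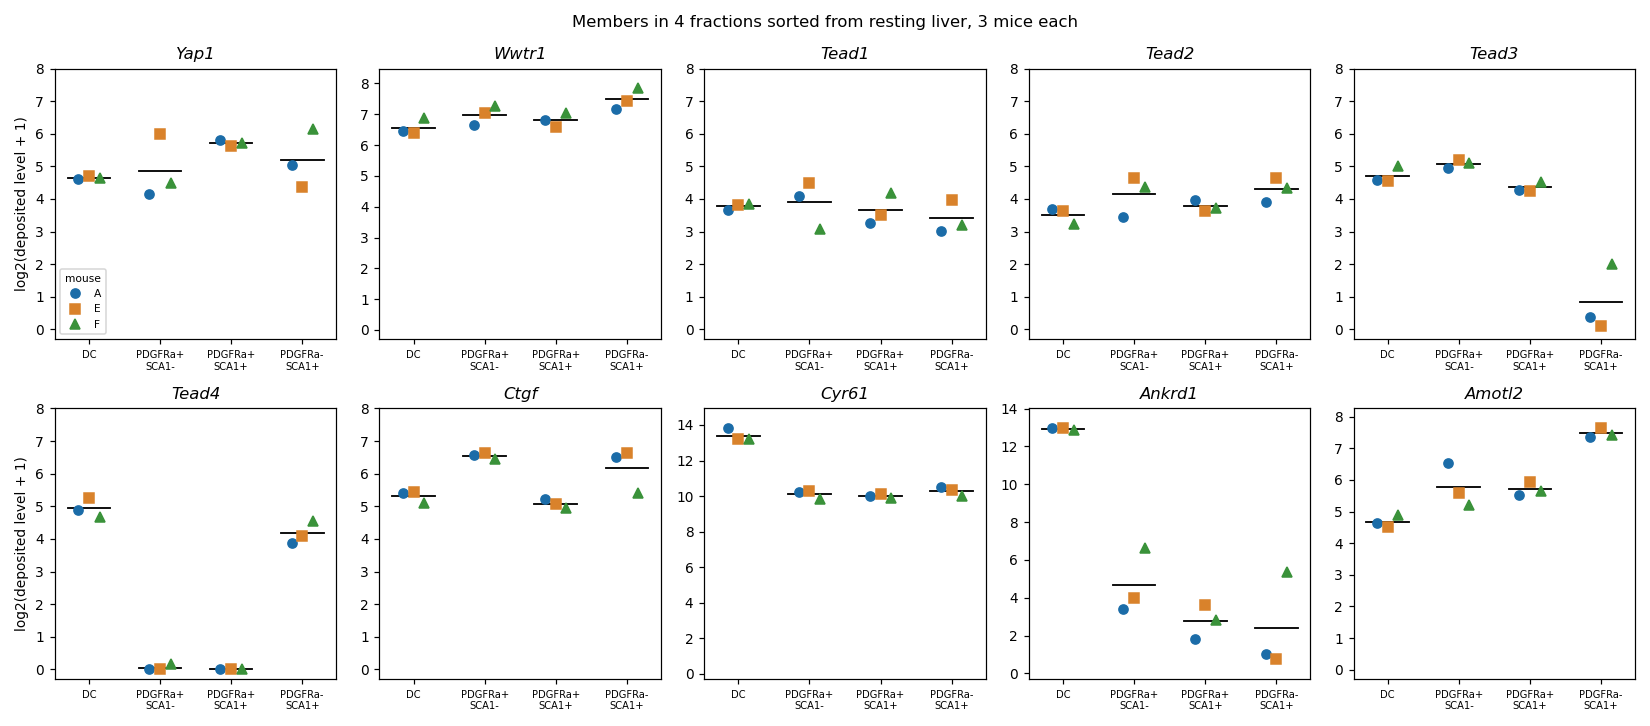
Level of each member in the 4 fractions of resting liver, as log2(deposited level + 1) on the y axis, with 1 point per mouse and a line at the mean of the 3 mice. Tead4 sat at or next to 0 in all PDGFRa+ libraries, Tead3 was lowest in PDGFRa-SCA1+, and Cyr61 and Ankrd1 were highest in DCs.

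The TEAD factors separated the fractions by which family member was present. Tead4 was at 28.6, 37.3 and 24.3 in DCs and at 13.6, 16.1 and 22.3 in PDGFRa-SCA1+. In PDGFRa+SCA1+ it was listed at 0 in all 3 mice, and in PDGFRa+SCA1- at 0, 0 and 0.115, the last being 3 reads. The PDGFRa+ libraries thus lay apart from both other fractions without overlap. Against a floor of 3 reads per library, which was at most 0.133 in PDGFRa+SCA1+, the mean of DCs was at least 226-fold higher and that of PDGFRa-SCA1+ at least 130-fold higher. On the log2(level + 1) scale Tead4 was lower by -4.94 (SE 0.47, adjusted p = 9.63e-06) in PDGFRa+SCA1+ and by -4.88 (adjusted p = 1.05e-05) in PDGFRa+SCA1- than in DCs, both in limma. DCs and PDGFRa-SCA1+ did not overlap in Tead4 either, yet their difference of -0.77 (SE 0.47) was not called (adjusted p = 0.288).

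Tead3 showed the reverse arrangement among the stromal fractions. It was at 23.03, 22.4 and 31.0 in DCs, at 29.7, 36.0 and 33.4 in PDGFRa+SCA1- and at 18.6, 18.1 and 21.9 in PDGFRa+SCA1+. In PDGFRa-SCA1+ it was only at 0.309, 0.0847 and 3.06, below every library of the other fractions. The log2 fold change of PDGFRa-SCA1+ was -3.87 (SE 0.50, adjusted p = 0.000112) against DCs, -3.51 (adjusted p = 0.000329) against PDGFRa+SCA1+ and -4.24 (adjusted p = 7.46e-05) against PDGFRa+SCA1- in limma. Tead3 in mouse F was the highest of the 3 PDGFRa-SCA1+ libraries, which is also the library in which Ankrd1 stood out. PDGFRa+SCA1+ lay below the other PDGFRa+ fraction and below DCs in Tead3 without overlap, but neither difference was called (adjusted p = 0.637 and 0.666).

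Tead1 and Tead2 were present in every fraction and were called in no pair. Tead1 ranged from 7.15 to 21.4 over the 12 libraries, with overlapping groups throughout. Tead2 averaged 10.5 ± 1.91 in DCs, 17.9 ± 7.18 in PDGFRa+SCA1-, 12.7 ± 1.59 in PDGFRa+SCA1+ and 19.0 ± 4.94 in PDGFRa-SCA1+ (SD, n = 3). PDGFRa-SCA1+ lay above DCs in Tead2 without overlap, with an adjusted p of 0.223 in limma.

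As a share of the summed level of the 4 TEAD genes, Tead4 made up 38.0% ± 6.38 in DCs and 36.8% ± 6.63 in PDGFRa-SCA1+ (SD, n = 3), 0.0631% in PDGFRa+SCA1- and 0% in PDGFRa+SCA1+. Tead3 made up 32.5% ± 7.03 in DCs, 50.8% ± 5.78 in PDGFRa+SCA1-, 44.2% ± 1.36 in PDGFRa+SCA1+ and 2.28% ± 3.07 in PDGFRa-SCA1+. The DCs were the only fraction in which each of the 4 TEAD genes made up at least 10.9% of the sum in every mouse. With the totals undone the share of Tead3 in PDGFRa+SCA1+ was 41.8%.

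**Figure D2:**
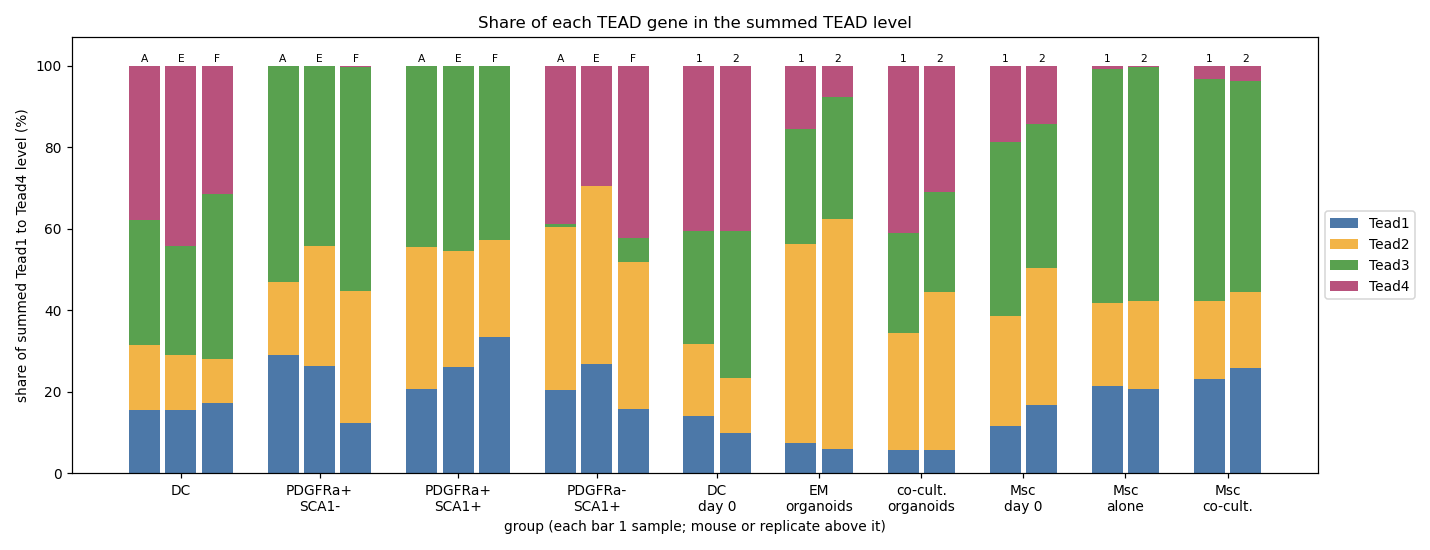
Share of each TEAD gene in the summed level of Tead1 to Tead4, in percent on the y axis, with 1 bar per sample grouped on the x axis. Tead4 was at most 0.189% in the PDGFRa+ fractions and at most 0.770% in SCA1+Msc after culture alone, Tead3 was nearly missing from PDGFRa-SCA1+, and Tead2 took the largest share in EM organoids.

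Of the target genes, Cyr61 and Ankrd1 were far higher in DCs than in any stromal fraction. Cyr61 encodes a secreted matrix-associated protein that binds integrins. It was at 14494, 9373 and 9369.8 in DCs of mice A, E and F. In the 9 stromal libraries it lay between 904 and 1470.4. The log2 fold change against DCs was -3.39 (SE 0.22, adjusted p = 4.59e-07) in PDGFRa+SCA1+, -3.30 (adjusted p = 5.74e-07) in PDGFRa+SCA1- and -3.12 (adjusted p = 1.15e-06) in PDGFRa-SCA1+ in limma. The stromal fractions overlapped each other in Cyr61 and were not called apart.

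Ankrd1, which encodes a protein of the nucleus and of the contractile apparatus, was at 8000.0, 8026 and 7587 in DCs. It was at 9.68, 15.0 and 99.2 in PDGFRa+SCA1-, at 2.499, 11.1 and 6.15 in PDGFRa+SCA1+ and at 1.07, 0.724 and 40.4 in PDGFRa-SCA1+. Every stromal library was thus below every DC library by a wide margin. The log2 fold change against DCs was -10.19 (SE 1.10, adjusted p = 2.59e-05) in PDGFRa+SCA1+, -8.25 (adjusted p = 0.000133) in PDGFRa+SCA1- and -10.54 (adjusted p = 2.14e-05) in PDGFRa-SCA1+ in limma. Mouse F was the highest library in 2 of the 3 stromal fractions. The ductal markers of the same libraries differed between the mice too. In PDGFRa+SCA1- Epcam was at 0.396, 11.7 and 0.814 and Spp1 at 57.9, 293 and 144 in mice A, E and F. In PDGFRa-SCA1+ Epcam was at 0.610, 148 and 30.8 and Spp1 at 19.8, 3493 and 253. In Epcam and Spp1 mouse F was above mouse A and below mouse E in both fractions. Krt19 did not follow this order, at 15.4, 0.1005 and 0.276 in PDGFRa+SCA1- and at 56.1, 58.1 and 25.8 in PDGFRa-SCA1+. The part of ductal RNA in these Ankrd1 levels was not tested. Without PDGFRa-SCA1+ F, Ankrd1 was also called lower in PDGFRa-SCA1+ than in PDGFRa+SCA1- at -3.77 (adjusted p = 0.00751), from -2.28 (adjusted p = 0.164) with it.

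Ctgf and Amotl2 went the other way or did not follow DCs. Ctgf encodes a secreted relative of Cyr61 that is known for fibrosis. It was at 41.7, 42.4 and 33.1 in DCs, at 94.3, 97.4 and 86.5 in PDGFRa+SCA1- and at 36.3, 32.6 and 29.9 in PDGFRa+SCA1+. The 2 PDGFRa+ fractions therefore did not overlap in Ctgf, with a log2 fold change of -1.47 (SE 0.32) for SCA1+ against SCA1-, but this did not pass adjustment over all genes (adjusted p = 0.0764 in limma). PDGFRa+SCA1- was called above DCs at 1.23 (SE 0.32, adjusted p = 0.0133), a call lost without DC F (adjusted p = 0.0571). In PDGFRa-SCA1+ Ctgf was at 89.7, 98.7 and 41.7, mouse F standing low. This fraction was called above PDGFRa+SCA1+ at 1.10 (SE 0.32, adjusted p = 0.0322). The call was lost under 5 of the 6 leave-outs, with adjusted p from 0.0645 to 0.119, under quantile normalization (0.25), with the totals undone (0.0548), with only these 2 groups in the fit (0.0568) and without the trend (0.0626). Without PDGFRa-SCA1+ F it was also called above DCs, at 1.26 (adjusted p = 0.00554) in place of 0.87 (0.0754).

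Amotl2 encodes a junctional scaffold that holds YAP in the cytoplasm and is itself induced by YAP, so that it acts as feedback. DCs were lowest at 24.1, 21.8 and 28.6. PDGFRa+SCA1- was at 92.8, 47.4 and 35.8, PDGFRa+SCA1+ at 44.7, 60.2 and 49.4, and PDGFRa-SCA1+ highest at 165, 200.0002 and 172. DCs did not overlap with any stromal fraction, and PDGFRa-SCA1+ did not overlap with either PDGFRa+ fraction. PDGFRa-SCA1+ was called above DCs at 2.80 (SE 0.33, adjusted p = 5.95e-05), above PDGFRa+SCA1+ at 1.79 (adjusted p = 0.00237) and above PDGFRa+SCA1- at 1.70 (adjusted p = 0.00295) in limma. The smaller difference of PDGFRa+SCA1+ from DCs, 1.02 (adjusted p = 0.0437), was lost whichever of the 6 libraries was left out (adjusted p from 0.0715 to 0.141) with the mouse as a replicate block (0.0653), with no filter on low values (0.0588) and without the trend (0.0798). That of PDGFRa+SCA1-, 1.10 (adjusted p = 0.0269), was lost without PDGFRa+SCA1- A (0.0696), DC A (0.0755) or DC E (0.0922), with only these 2 groups in the fit (0.0873) and without the trend (0.0525).

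Counted together, 4 of the 10 members were called in PDGFRa+SCA1+ against DCs (1 higher, 3 lower) where 23.8% of all 17028 genes tested were called. In PDGFRa+SCA1- against DCs the count was 5 (2 higher, 3 lower) with 28.8% of all genes called, and in PDGFRa-SCA1+ against DCs it was 5 (2 higher, 3 lower) with 22.8%. These 3 comparisons share the DC libraries. Between stromal fractions, 4 members were called in PDGFRa-SCA1+ against PDGFRa+SCA1+ (3 higher, 1 lower, 18.8% of genes) and 3 against PDGFRa+SCA1- (2 higher, 1 lower, 21.5%). Between PDGFRa+SCA1+ and PDGFRa+SCA1- none of the 10 members was called, where 0.587% of all genes were called, so that the count says nothing particular about the members. Ctgf and Tead3 (-0.73) did not overlap between these fractions, and of the members only Ctgf had an unadjusted p below 0.05 in limma. The share of all genes without overlap was not counted, so the separation says nothing particular about the members. The median log2 fold change of the members was -0.18, 0.30 and 0.08 in the 3 comparisons with DCs in that order, against -0.28, -0.47 and -0.04 over all genes.

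In the transwell experiment the sorted cells at day 0 repeated the contrast of DCs and stroma with other mice and a broader stromal gate. Of the 10 members, 7 were called in SCA1+Msc against DCs at day 0 (4 higher, 3 lower), where 46.1% of 18136 genes tested were called. Cyr61 was at 12392 and 11019 TPM in DCs and at 1472 and 1892 in SCA1+Msc, and Ankrd1 at 6070.1 and 6219.6 against 71.7 and 242. Both were well below DCs, by -2.81 (SE 0.15, adjusted p = 6.73e-07) and -5.53 (SE 0.45, adjusted p = 8.89e-06) on the log2 scale in limma. Replicate 2 of SCA1+Msc at day 0, the higher one in Ankrd1, also had more ductal RNA, with Epcam at 113 against 53.8 and Spp1 at 1979 against 889.6. The part of this RNA in the Ankrd1 level was not tested.

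Tead4 was at 21.5 and 16.9 TPM in DCs at day 0 and at 5.01 and 4.45 in SCA1+Msc, lower by -1.81 (SE 0.38, adjusted p = 0.00326). Unlike the PDGFRa+ fractions of resting liver, SCA1+Msc thus held Tead4. The gate of these cells was CD31-, but it had not excluded PDGFRa- cells. Their libraries at day 0 carried ductal markers with a sum of 1192 to 2539 TPM and endothelial markers with a sum of 217 to 229 TPM, and Tead4 was present in both DCs and the PDGFRa-SCA1+ fraction of resting liver. The part of this RNA in the Tead4 level was not tested. Ctgf (99.6 and 145 against 40.1 and 46.5) and Amotl2 (63.4 and 62.9 against 29.6 and 34.1) were higher in SCA1+Msc, at 1.46 (adjusted p = 0.0009) and 0.97 (adjusted p = 0.000296) in limma. Yap1 and Wwtr1 were also called higher, at 0.85 (adjusted p = 0.0395) and 0.50 (adjusted p = 0.0294). Both calls were lost without DC day 0 replicate 1 (adjusted p = 0.179 and 0.0710), without DC day 0 replicate 2 (0.0673 and 0.126) or without SCA1+Msc day 0 replicate 2 (0.234 and 0.125). That of Yap1 was also lost with no filter on low values (0.0572) and with only these 2 groups in the fit (0.138), and that of Wwtr1 without the trend (0.0670).

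**Figure D3:**
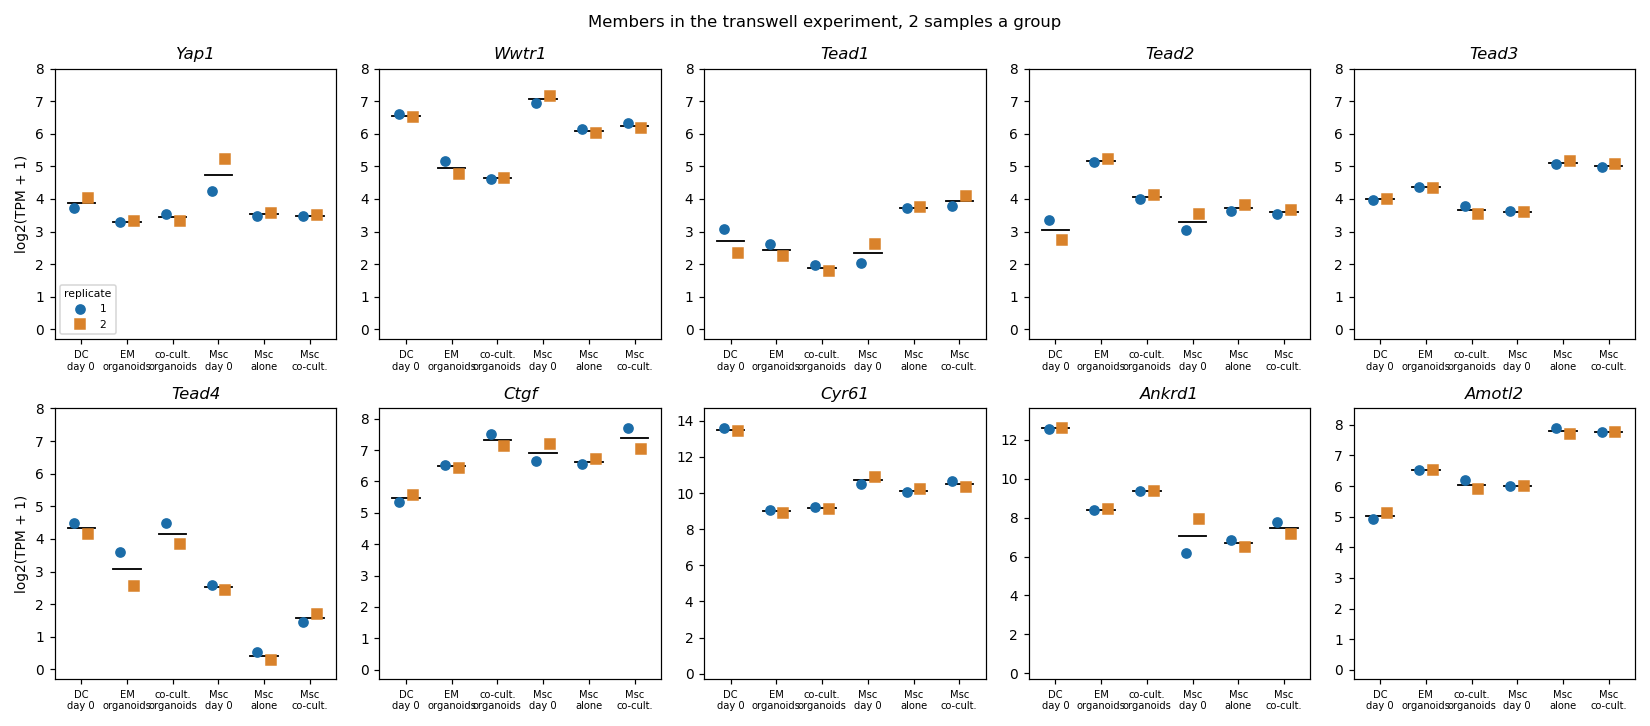
Level of each member in the 6 transwell groups, as log2(TPM + 1) on the y axis, with 1 point per sample and a line at the mean of the 2 samples. Cyr61 and Ankrd1 fell from day 0 to both kinds of organoid while Ctgf and Amotl2 rose, and in SCA1+Msc Tead1, Tead3 and Amotl2 rose after culture.

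After 15 days as organoids, 7 members were called in EM organoids (3 higher, 4 lower, against 44.4% of genes) and 6 in co-cultured organoids (3 higher, 3 lower, against 42.3% of genes), both compared with DCs at day 0. These 2 comparisons share the day 0 samples. The 4 target genes split into pairs. Cyr61 fell from 12392 and 11019 TPM to 536 and 477 in EM and to 599 and 550.0 in co-culture, by -4.53 (SE 0.15, adjusted p = 1.07e-07) and -4.35 (SE 0.15, adjusted p = 1.08e-07). Ankrd1 fell from 6070.1 and 6219.6 to 339 and 343 in EM and to 654 and 655 in co-culture, by -4.17 (SE 0.45, adjusted p = 6.33e-05) and -3.23 (SE 0.45, adjusted p = 0.000334). Each culture level was below each day 0 level.

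Over the same 15 days Ctgf and Amotl2 rose. Ctgf went from 40.1 and 46.5 TPM to 91.5 and 85.6 in EM and to 181 and 138 in co-culture. This was a rise of 1.02 (SE 0.24, adjusted p = 0.00749) and 1.85 (SE 0.24, adjusted p = 0.00026), the first of which was lost without DC day 0 replicate 1 (adjusted p = 0.0520). Amotl2 went from 29.6 and 34.1 to 90.4 and 90.2 in EM and to 72.1 and 58.3 in co-culture, a rise of 1.48 (SE 0.14, adjusted p = 2.43e-05) and 1.01 (SE 0.14, adjusted p = 0.000289) in limma. No organoid sample overlapped with a day 0 sample in either gene, a separation that is common with 2 samples a group.

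Immediate early genes, a set of transcription factors and feedback genes induced within minutes of a stimulus such as tissue digestion, were measured beside the targets. All 10 fell in EM organoids and all 10 in co-cultured organoids, where 44.4% and 42.3% of all genes were called, with a median log2 fold change of -3.85 and -3.30, against 0.12 and 0.00 over all genes. Atf3 was at 1759 ± 28.1 TPM (SD, n = 2) in DCs at day 0, 4.02 ± 0.851 in EM and 28.8 ± 0.652 in co-culture. In the same libraries Fosl1 was at 2184 ± 214 at day 0 and 6.21 ± 1.34 in EM. In SCA1+Msc the same 10 genes fell as well, by a median of -5.34 alone and -5.00 in co-culture, while the log2 fold change of Cyr61 was -0.57 and -0.21 and that of Ankrd1 -0.38 and 0.41. The part of the digestion in the day 0 levels was not tested.

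**Figure D4:**
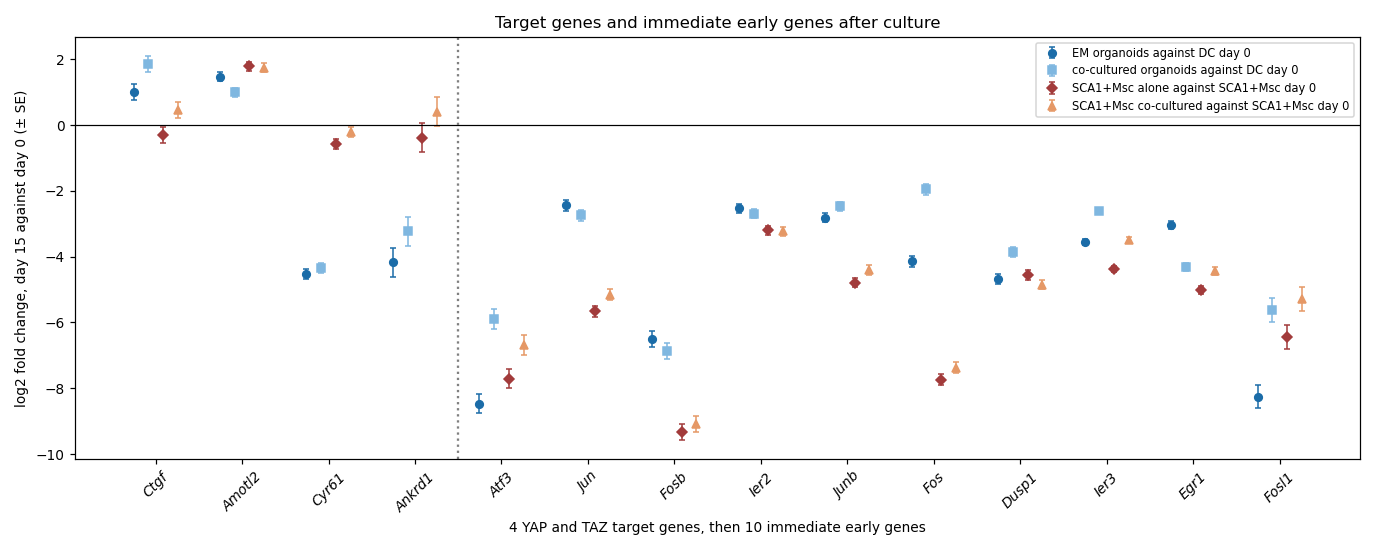
log2 fold change from day 0 to day 15 on the y axis (points, with bars of 1 SE) for the 4 target genes and, right of the dotted line, the 10 immediate early genes, in 2 kinds of organoid and 2 kinds of SCA1+Msc culture. For SCA1+Msc, 7 days of expansion came before these 15 days. All 40 values of the immediate early genes were below 0, while Amotl2 was above 0 in all 4 comparisons and Cyr61 and Ankrd1 were at -3.23 or lower in both kinds of organoid.

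Among the factors, TAZ RNA fell in organoids and the TEAD family changed its make-up. Wwtr1 went from 96.4 and 90.3 TPM to 34.9 and 25.9 in EM and to 23.7 and 24.01 in co-culture, a fall of -1.60 (SE 0.16, adjusted p = 4.3e-05) and -1.92 (SE 0.16, adjusted p = 1.52e-05) in limma. Yap1 was at 12.3 and 15.4 at day 0, 8.83 and 8.999 in EM and 10.6 and 9.08 in co-culture, which was lower in each organoid sample but not called (-0.57 and -0.45, adjusted p = 0.150 and 0.264). With quantile normalization Yap1 was called lower in EM at -0.95 (adjusted p = 0.0290). The level of Wwtr1 over that of Yap1 was 6.85 ± 1.38 at day 0, 3.42 ± 0.759 in EM and 2.44 ± 0.285 in co-culture (SD, n = 2).

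Tead2 rose from 9.29 and 5.64 TPM at day 0 to 34.3 and 36.2 in EM and to 15.0 and 16.5 in co-culture. Tead2 gained 2.13 (SE 0.26, adjusted p = 0.000149) in EM and 1.02 (SE 0.26, adjusted p = 0.0111) in co-culture, the latter lost without DC day 0 replicate 2 (0.0835) or co-cultured organoids replicate 2 (0.0636). Tead2 thus made up 15.6% ± 2.85 of the summed TEAD level at day 0, 52.7% ± 5.46 in EM and 33.7% ± 7.08 in co-culture. Tead4 was at 21.5 and 16.9 at day 0, 11.0 and 4.92 in EM and 21.5 and 13.2 in co-culture, so that the co-cultured organoids overlapped with day 0. It was called lower in EM at -1.25 (SE 0.38, adjusted p = 0.0227), which was lost without DC day 0 replicate 1 (0.118), DC day 0 replicate 2 (0.0518) or EM organoids replicate 2 (0.176). Tead1 and Tead3 were called in neither kind of organoid against day 0, but without DC day 0 replicate 2 Tead1 was called lower in co-culture (-1.19, adjusted p = 0.0366), and with quantile normalization Tead3 was (-0.52, adjusted p = 0.0429).

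The comparison of co-cultured with EM organoids set growth above SCA1+Msc in MM, which contains WNT3A, against growth alone in EM, so medium and SCA1+Msc differed together. It was called for 2 members, both lower, where 12.9% of genes were called. Tead2 was lower by -1.11 (SE 0.26, adjusted p = 0.0219). Tead3, at 12.9 and 10.5 TPM against 19.8 and 19.1, was lower by -0.69 (SE 0.17, adjusted p = 0.0275). Both calls were lost whichever of the 4 samples was left out, with adjusted p from 0.0818 to 0.130 for Tead2 and from 0.0559 to 0.164 for Tead3. Both were also lost with quantile normalization (0.0531 and 0.115), and that of Tead3 with only these 2 groups in the fit (0.0647). The target genes Ctgf (0.83, SE 0.24, adjusted p = 0.0558) and Amotl2 (-0.47, SE 0.14, adjusted p = 0.0504) lay just outside the threshold in opposite directions in limma. Both passed with a minimum level of 5 (adjusted p = 0.0428 and 0.0397), and Ctgf also passed with quantile normalization, where it was the only member called (0.0428), with the RPKM values as deposited (0.0319) and with only these 2 groups in the fit (0.0130). Ankrd1 was at 654 and 655 in co-culture against 339 and 343 in EM, a difference of 0.94 with an adjusted p of 0.225. With only these 2 groups in the fit its adjusted p was 0.0007. Tead4 (1.09, adjusted p = 0.0968) was called higher in co-culture without EM organoids replicate 1, at 1.60 (adjusted p = 0.0472), and with the RPKM values as deposited (0.98, adjusted p = 0.0483).

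In SCA1+Msc, culture moved the co-activators down and several TEAD genes and Amotl2 up. After culture alone, 7 members were called against day 0 (3 higher, 4 lower, against 44.8% of genes), and beneath DCs 5 were called (3 higher, 2 lower, against 43.3% of genes). Yap1 went from 18.1 and 36.1 TPM to 10.2 and 10.9 alone and to 10.3 and 10.3 in co-culture, by -1.21 (SE 0.30, adjusted p = 0.00856) and -1.24 (adjusted p = 0.00751). With only the groups compared in the fit, the adjusted p was 0.0608 and 0.0597. Wwtr1 went from 123 and 142 to 69.7 and 64.3 alone and to 79.3 and 71.5 in co-culture, by -0.97 (SE 0.16, adjusted p = 0.000967) and -0.80 (adjusted p = 0.00295) in limma. No cultured sample overlapped with day 0 in either gene, a separation that is common with 2 samples a group.

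Tead1 rose from 3.10 and 5.21 TPM to 12.1 and 12.49 alone and to 12.9 and 16.0 in co-culture, by 1.40 (SE 0.33, adjusted p = 0.00722) and 1.61 (adjusted p = 0.00354). Tead3 rose from 11.4 and 11.0 to 32.5 and 34.6 and to 30.3 and 32.3, by 1.4996 (SE 0.17, adjusted p = 0.000103) and 1.41 (adjusted p = 0.000158). Tead4 went down from 5.01 and 4.45 to 0.435 and 0.227 alone, which are 12 and 6 reads, and to 1.76 and 2.27 in co-culture. The summed ductal and endothelial markers were lower beside it. Ductal markers went from 1192 to 2539 TPM at day 0 to 215 to 234 alone and 273 to 554 in co-culture. After culture most of this sum was Spp1, at 193 and 229 alone and 545 and 263 in co-culture. Epcam was at 7.28 and 0.133 alone and 0.0774 and 0.0 in co-culture, and Krt19 at 6.04 and 0.0 and at 2.81 and 2.91. Endothelial markers went from 217 to 229 to 91.8 to 151 and 118 to 177. Macrophage markers were higher, at 183 to 232 at day 0, 382 to 612 alone and 267 to 291 in co-culture. The part of RNA of other cell types in the Tead4 change was not tested. Only the change alone was called (-2.11, SE 0.38, adjusted p = 0.00153, with -0.93 and adjusted p = 0.0744 in co-culture). Tead3 ended as the main family member at 57.4% ± 0.135 of the TEAD sum alone and 53.2% ± 1.77 in co-culture, from 39.0% ± 5.18 at day 0 (SD, n = 2).

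Amotl2 rose from 63.4 and 62.9 TPM to 237 and 206 alone and to 215 and 216 in co-culture, by 1.79 (SE 0.14, adjusted p = 8.32e-06) and 1.75 (adjusted p = 1.03e-05) in limma. It was the only target gene to rise in every culture of either cell type. Cyr61 was at 1472 and 1892 at day 0, 1056 and 1191 alone and 1627 and 1279 in co-culture. It was called alone (-0.57, adjusted p = 0.0105), a call lost without SCA1+Msc day 0 replicate 2 (0.0727) or SCA1+Msc alone replicate 1 (0.0733), with quantile normalization (-0.26, adjusted p = 0.214) and without the trend (0.0530). In co-culture it overlapped with day 0. Ctgf, at 92.4 and 103 alone and 208 and 131 in co-culture, and Ankrd1, at 116 and 87.9 alone and 222 and 140.1 in co-culture, overlapped with day 0 and were not called. Without SCA1+Msc co-cultured replicate 2, the lower one, Ctgf was called higher in co-culture (0.79, adjusted p = 0.0398). The Ankrd1 difference between alone and day 0 rested on which day 0 sample was used: it was -1.25 (adjusted p = 0.00369) without replicate 1 and 0.49 (adjusted p = 0.144) without replicate 2, and in co-culture it was -0.46 (0.173) and 1.29 (0.0035).

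Between co-cultured SCA1+Msc and those cultured alone none of the 10 members was called, where 0.127% of all genes were called, so that this count does not show that the members were alike. The members with the lowest adjusted p in limma were Tead4 (1.18, SE 0.38, adjusted p = 0.505) and Ctgf (0.75, SE 0.24, adjusted p = 0.517), and these and Cyr61 (0.36, SE 0.15) had an unadjusted p below 0.05. The 2 groups did not overlap in Wwtr1, Tead1, Tead3, Tead4, Ctgf, Cyr61 and Ankrd1, among them Tead3 with a log2 fold change of only -0.09. With 2 samples a group such separation is common without any difference. Its share over all genes was not counted, so it says nothing particular about the members.

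**Figure D5:**
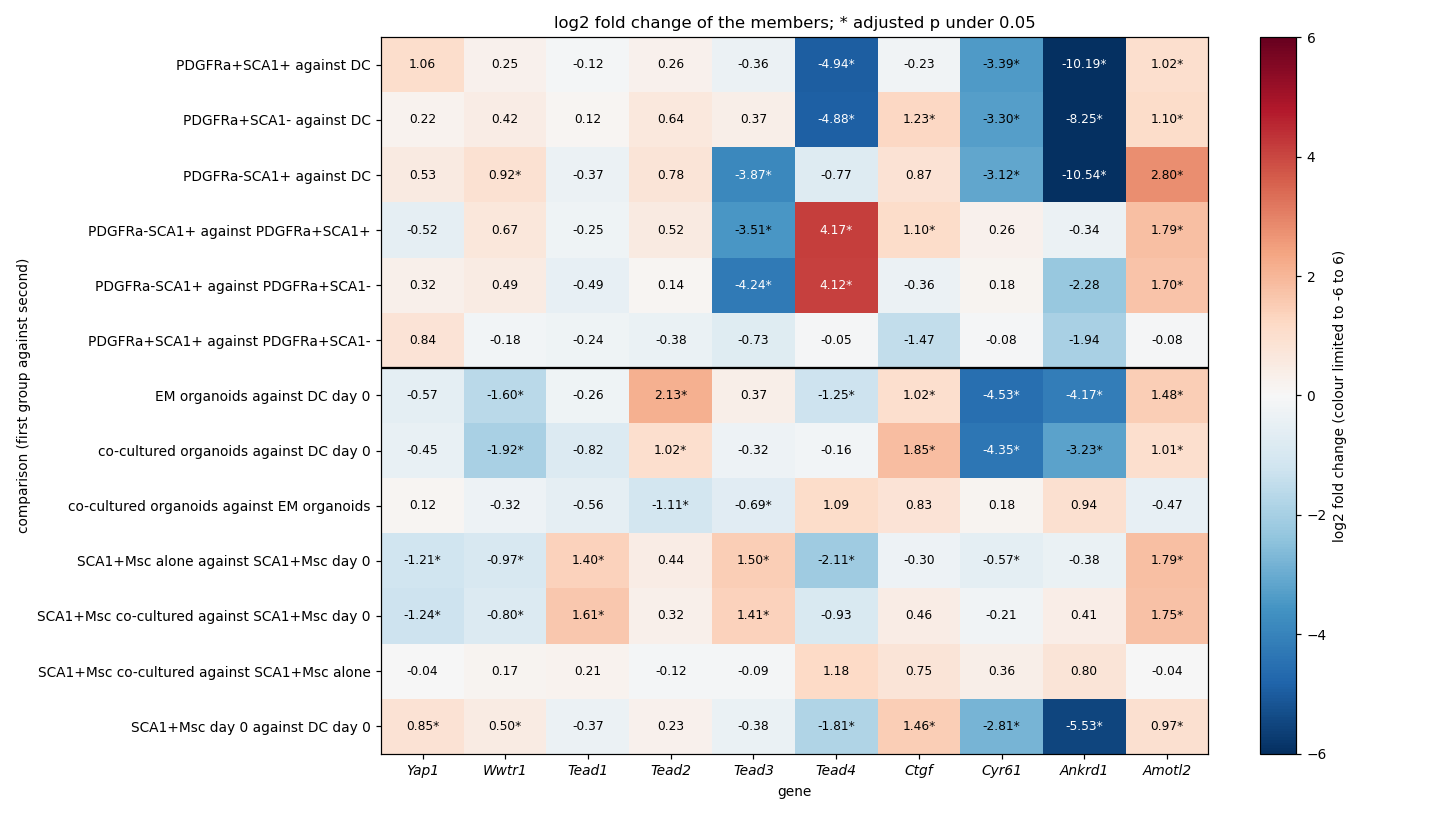
log2 fold change of each member (x axis) in each comparison (y axis), with colour from blue (lower in the first group named) to red (higher) limited at -6 and 6 and an asterisk where the adjusted p was below 0.05. The Cyr61 and Ankrd1 columns are blue in every comparison with DCs, the Amotl2 column is red in all of them, and the 2 rows for SCA1 within PDGFRa+ cells and for co-culture of SCA1+Msc hold no asterisk.

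The change from day 0 to culture was also compared between cell types. The change of EM organoids differed from that of SCA1+Msc alone in 6 of 10 members (2 more positive in organoids, 4 more negative, against 26.8% of genes), and that of co-cultured organoids from co-cultured SCA1+Msc in 7 (1 more positive, 6 more negative, against 28.3% of genes). Cyr61, Ankrd1, Tead1 and Tead3 were more negative in organoids in both, and Ctgf more positive in both. The day 0 samples are shared by these 2 comparisons. Substrate, time in culture and, for EM organoids, medium differed along with cell type, and their parts cannot be told apart.

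The Hippo kinases and scaffolds, which restrain YAP and TAZ, were measured as a list of 18 genes, all of them tested. Against DCs, 2 were higher and 4 lower in PDGFRa+SCA1+, 4 higher and 3 lower in PDGFRa+SCA1- and 4 higher and 4 lower in PDGFRa-SCA1+, where 23.8%, 28.8% and 22.8% of all genes were called. The atypical cadherins Dchs1 and Fat4, which signal into the pathway at the cell surface, were higher in all 3 stromal fractions. Dchs1 averaged 0.0552 in DCs and 14.8 ± 7.56 in PDGFRa+SCA1+, and Fat4 2.35 ± 0.415 and 20.1 ± 3.13 (SD, n = 3). Wwc1, which encodes the scaffold KIBRA, was lower in all of them, at 44.9 ± 11.1 in DCs and 0.218 ± 0.346 in PDGFRa+SCA1+ (log2 fold change -5.24, adjusted p = 8.14e-06 in limma). LATS2 kinase RNA (Lats2) was higher in PDGFRa-SCA1+ than in PDGFRa+SCA1+, at 101.8 ± 8.32 against 32.9 ± 10.4 (1.64, adjusted p = 0.0271). In organoids 2 genes of this list rose and 6 fell in EM, and 1 rose and 6 fell in co-culture, which is near the 44.4% and 42.3% called over all genes and no result about the list. Nf2, which encodes the scaffold Merlin, was among those that rose in both, from 19.0 ± 1.077 TPM to 31.6 ± 1.27 and 31.8 ± 0.526 (SD, n = 2).

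Of 16 listed binding partners of YAP, TAZ and TEAD, 14 were tested. Against DCs, 2 were higher and 4 lower in PDGFRa+SCA1+, 3 higher and 4 lower in PDGFRa+SCA1- and 2 higher and 2 lower in PDGFRa-SCA1+, beside 23.8%, 28.8% and 22.8% of all genes called. Vgll3, a TEAD cofactor that competes with YAP, was listed at 0 in every DC library, at 40.2 ± 0.548 in PDGFRa+SCA1+, 25.5 ± 15.7 in PDGFRa+SCA1- and 0.0374 in PDGFRa-SCA1+ (SD, n = 3). Over the 12 libraries of resting liver, Vgll3 was thus at or near 0 where Tead4 was present, and Tead4 at or near 0 where Vgll3 was. In culture Vgll3 rose in SCA1+Msc from 25.2 ± 5.76 TPM to 88.5 ± 6.29 alone and 90.7 ± 10.2 in co-culture (1.79 and 1.82, adjusted p = 0.00031 and 0.000289 in limma).

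A further 22 genes from a widely used YAP and TAZ target list, without the members, were all tested. In the fractions 8 were higher and 5 lower than in DCs in PDGFRa+SCA1+, 10 and 5 in PDGFRa+SCA1-, and 8 and 6 in PDGFRa-SCA1+, again beside 23.8%, 28.8% and 22.8% of all genes. Ccdc80 and Igfbp3, secreted proteins of stromal cells, were highest in stroma, at 1002 ± 63.4 and 3682 ± 593 in PDGFRa+SCA1+ against 1.68 ± 0.794 and 6.67 ± 4.11 in DCs. F3, which encodes tissue factor, was highest in DCs as Cyr61 and Ankrd1 were, at 4204 ± 160 against 511 ± 86.0 in PDGFRa+SCA1+ (SD, n = 3). Edn1, the endothelin 1 precursor, was highest in PDGFRa-SCA1+ at 435 ± 42.0, where endothelial markers were also high. The further targets thus did not share 1 order of the fractions. Lats2 is in this list and in the Hippo list.

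In organoids 6 of these 22 genes rose and 6 fell in EM, and 8 rose and 6 fell in co-culture, where 44.4% and 42.3% of all genes were called. F3 fell from 5051 ± 155 TPM to 59.5 ± 3.91 in EM and to 456 ± 92.0 in co-culture (SD, n = 2). Axl, a receptor tyrosine kinase, rose from 7.36 ± 0.455 to 34.7 ± 0.839 and 64.0 ± 22.4. Between co-cultured and EM organoids 9 were higher and 2 lower, where 12.9% of all genes were called, the largest differences being those of Nt5e (3.28, adjusted p = 0.000662), F3 (2.90, adjusted p = 0.000589) and, lower, Rbms3 (-2.62, adjusted p = 3.005e-05) in limma. The median log2 fold change of the 22 genes in that comparison was 0.17, against -0.13 over all genes and -0.10 over the 10 members.

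Across the 12 samples of each experiment, the members did not share 1 pattern. As a description with no test, Cyr61 and Ankrd1 had a Pearson r of log2 levels of 0.89 in the resting liver and 0.65 in the transwell experiment, Ankrd1 and Amotl2 of -0.74 and -0.77, and Tead3 and Amotl2 of -0.83 and 0.86. The samples of a group share their cell type, so these values follow the group means. Among 13368 other genes present in both tables, those most like a member by the smaller of its 2 correlations were Lmo7 for Tead4 (0.95), Lman1 for Amotl2 (0.94), Fam163a and Cftr for Ankrd1 (0.93), Trim47 for Cyr61 (0.92) and H6pd for Tead3 (0.91). The nearest genes to Yap1 (Bcas3os2, 0.84), Wwtr1 (Jak1, 0.87), Tead2 (Nek7, 0.83), Tead1 (Lrrc27, 0.75) and Ctgf (Cdk5rap3, 0.71) were less alike.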

How the data were processed

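RNA from sorted cells and cultures was sequenced by Smart-seq2 (single reads of 50 bases). The authors aligned reads with STAR 2.5.0a to GRCm38/mm10, kept well-mapped reads with SAMtools and counted exons with featureCounts on an Ensembl annotation. The authors deposited RPKM for the transwell experiment, scaled here to TPM within each sample. The deposited values for the resting liver, labelled TPM, are treated as signal: the column totals had been reused down the table in a cycle of 12, so each column sums to 847270.0 to 1173511.0. TPM rebuilt by undoing this is an alternative. Their 4 columns of group means were not used.

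Levels were tested as log2(level + 1) in limma 3.58.1 (R 4.3.3), all 12 samples of an experiment sharing 1 estimate of the spread, with a mean-variance trend and Benjamini-Hochberg adjustment over all genes with a level of at least 1 in at least 3 (resting liver) or 2 (transwell) samples. Fold changes on this scale understate changes of low genes. Depth was rebuilt from the steps of low values. The test was checked on simulated data. The 2 transwell samples of a group are independent biological replicates in the study's words.

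Mice A, E and F each gave all 4 fractions, so the letters pair these samples (correlation of same-mouse deviations 0.0039 to 0.0973). Alternatives were a pseudocount of 0.1, no filter, a minimum of 5, quantile normalization, no trend, a replicate block, only the groups compared, RPKM as deposited and leaving out each sample. The members and gene lists were chosen with earlier results of these data known. All 10 members are named, with list genes chosen by the size of their called change.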

Additional observations from a re-analysis of the deposited data

Results flagged for a closer look

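The change from day 0 to culture differed between DCs and SCA1+Msc, by an interaction term in limma, for 6 members without co-culture and 7 with it. Cell type cannot be told apart here from substrate and time in culture, nor from medium for EM organoids. For EM organoids against SCA1+Msc alone, the difference of the 2 log2 fold changes was -3.96 for Cyr61 (adjusted p = 4.22e-06), -3.79 for Ankrd1 (0.0023), 1.69 for Tead2 (0.00906), -1.66 for Tead1 (0.0279), 1.32 for Ctgf (0.0206) and -1.13 for Tead3 (0.0081). For co-cultured organoids against co-cultured SCA1+Msc it was -4.14 for Cyr61 (adjusted p = 3.8e-06), -3.64 for Ankrd1 (0.00259), -2.43 for Tead1 (0.00463), -1.73 for Tead3 (0.000858), 1.39 for Ctgf (0.0154), -1.12 for Wwtr1 (0.00581) and -0.75 for Amotl2 (0.018).

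Leaving out 1 sample ended some of these calls. Without co-culture, Ctgf was lost without DC day 0 replicate 1 (adjusted p = 0.0692), EM organoids replicate 1 (0.0640) or 2 (0.0516), SCA1+Msc day 0 replicate 2 (0.0531) or SCA1+Msc alone replicate 1 (0.0662). Tead1 was lost without DC day 0 replicate 1 (0.0911), EM organoids replicate 2 (0.0928), SCA1+Msc day 0 replicate 1 (0.0623) or SCA1+Msc alone replicate 1 (0.0675) or 2 (0.0712). With co-culture, Ctgf was lost without DC day 0 replicate 1 (0.0547) or co-cultured organoids replicate 1 (0.0605), and Amotl2 without DC day 0 replicate 2 (0.0607), co-cultured organoids replicate 2 (0.0628) or SCA1+Msc co-cultured replicate 2 (0.0518). Without SCA1+Msc day 0 replicate 1, Yap1 passed in both, at 1.11 (0.0258) and 1.27 (0.0142), and without EM organoids replicate 1 Wwtr1 passed at -0.84 (0.0298). Amotl2 was also lost in limma without the trend (0.0609), and without co-culture Tead4 passed with a pseudocount of 0.1 (2.17, adjusted p = 0.0493) and Wwtr1 with quantile normalization (-0.77, 0.0341).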

How the results depend on the processing

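With 2 or 3 samples a group, the calls near the threshold depended on single samples. The number of members called in co-cultured against EM organoids was 2, and it was 4 with a minimum of 5, 1 with quantile normalization (Ctgf, in place of Tead2 and Tead3) and 4 with RPKM as deposited. With the totals undone, the share of Tead3 in PDGFRa+SCA1+ was 41.8% and the log2 ratio of Yap1 to Wwtr1 there was -1.37, from 44.2% and -1.12. Without each sample in turn, the members called numbered 3 to 3 for PDGFRa+SCA1+, 4 to 5 for PDGFRa+SCA1- and 4 to 5 for PDGFRa-SCA1+ against DCs, 3 to 4 for PDGFRa-SCA1+ against either PDGFRa+ fraction and 0 to 0 between these. They numbered 5 to 7 for EM and 5 to 6 for co-cultured organoids against day 0, 0 to 1 between the 2 kinds of organoid, 6 to 8 for SCA1+Msc alone, 5 to 6 for SCA1+Msc in co-culture, 0 to 0 between these, 5 to 7 for SCA1+Msc against DCs at day 0, and 4 to 6 and 6 to 8 for the differences between cell types. Some members that were not called changed sign, and the cause was not tested. With quantile normalization these were Tead1 (0.15), Tead3 (0.0148) and Ctgf (0.17) in PDGFRa+SCA1+ against DCs, Yap1 (-0.0124) and Tead2 (-0.21) in PDGFRa-SCA1+ against PDGFRa+SCA1-, Amotl2 (0.10) in PDGFRa+SCA1+ against PDGFRa+SCA1-, Tead3 (-0.0104) in EM organoids against day 0, and, in co-cultured SCA1+Msc, Cyr61 (0.14) against day 0 and Amotl2 (0.0038) against culture alone. With the totals undone, with or without the replicate block (a pair of settings of which the blocked one was chosen after seeing the data), they were Tead1 (0.0705) in PDGFRa+SCA1+ against DCs and Tead2 (-0.0024) in PDGFRa-SCA1+ against PDGFRa+SCA1-. Leaving out 1 sample turned the sign of further members, with these lowest and highest log2 fold changes. In PDGFRa+SCA1+ against DCs it was Tead1 (-0.39 to 0.0739), and in PDGFRa+SCA1- against DCs Yap1 (-0.34 to 0.58) and Tead1 (-0.18 to 0.52). In PDGFRa-SCA1+ they were Tead1 (-0.53 to 0.0171) and Ankrd1 (-1.83 to 0.46) against PDGFRa+SCA1+, and Yap1 (-0.17 to 0.87), Tead2 (-0.21 to 0.38) and Ctgf (-0.59 to 0.0227) against PDGFRa+SCA1-. In PDGFRa+SCA1+ against PDGFRa+SCA1- they were Tead1 (-0.64 to 0.0568), Amotl2 (-0.37 to 0.30) and Tead4 (-0.0785 to 0.0). In organoids against day 0 they were Tead1 in EM (-0.63 to 0.11) and Tead4 in co-culture (-0.50 to 0.17). In SCA1+Msc they were Ankrd1 alone (-1.25 to 0.49) and in co-culture (-0.46 to 1.29) against day 0, Yap1 (-0.0824 to 0.0076) and Amotl2 (-0.14 to 0.0619) between these cultures, and Tead2 against DCs at day 0 (-0.0813 to 0.55).

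With the replicate block, the members called in PDGFRa+SCA1+ against DCs numbered 3, from 4, through Amotl2, and no other member's call changed. Whether replicate numbers 1 and 2 pair transwell samples across groups, such as by donor, is not stated, and they were treated as unpaired (correlation of same-number deviations 0.0043 to 0.0295).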
